A study of Drosophila melanogaster with 4 samples.

Results

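The regions described here are the clusters of histone H3 acetylated at lysine 9 and phosphorylated at serine 10 (H3K9acS10P) that lie in the heterochromatic sequence of the fruit fly genome, on chromosome 4 and next to the centromeres. They were chosen by position alone. A cluster was a member when it lay on a scaffold whose name ends in Het, on the unplaced scaffold U or on chromosome 4, or when it started in the centromere-proximal 1 Mb of 2L, 3L, X or 3R. Of the 8976 clusters in the authors' combined list, 301 met this rule. The Het scaffolds held 51 of them, scaffold U 26, chromosome 4 77 and the proximal Mb of the 4 arms 147. The other 8675 clusters, called the rest of the large arms below, lie on 2L, 3L, X and 3R outside that Mb and on the whole of 2R, whose proximal Mb the rule does not take. The same rule gave 224 of 6365 clusters in replicate 1 and 230 of 6419 in replicate 2.

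The chromatin came from head nuclei of mixed adult flies of the Oregon-R strain, with a wild-type genotype, and was profiled by ChIP-seq. The labels speak of a new lot without saying of what. There were 2 ChIP samples and 2 inputs, 1 input for each ChIP sample. The labels number the ChIP samples as replicates without naming a fly collection for either, so their spread may be no more than technical. All 4 samples shared the strain, stage and tissue, and no label gives the sex of the flies. Head nuclei mix many cell types, which these lists cannot tell apart. Read depth is unknown. With 2 replicates a two-sided sign-flip test cannot give a p below 0.5, so no p-value was computed, and each comparison is given with both replicates' values.

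Heterochromatin packs the repeat-rich DNA around the centromeres, most of the Y and much of chromosome 4. Its nucleosomes typically carry methyl groups on lysine 9 of histone H3, which heterochromatin protein HP1a binds, and a lysine cannot carry acetyl and methyl groups at once. Active genes nonetheless lie within it. Chromosome 4 is the small autosome known for mixing such genes with HP1a-rich chromatin and for its binding protein POF. Phosphorylation of serine 10 on interphase chromosomes is laid down largely by the kinase JIL-1, which is known to counteract the spread of heterochromatin. In release r5 of the genome the Het scaffolds hold sequence assigned to an arm or to the Y but not joined to it, and U holds sequence assigned to none.

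Clusters were sparse in the heterochromatic scaffolds, and those present scored high. The Het scaffolds had 4.74 clusters per Mb in replicate 1 and 4.85 in replicate 2, against 53.4 and 53.8 on the rest of the large arms. Their clusters covered 1.42% ± 0.0039 of the sequence (SD, n = 2), where the rest of the large arms had 16.7% ± 0.089. Scaffold U was sparser still, with 1.49 clusters per Mb in each replicate and a coverage of 0.327% ± 0.014, or 0.531% in the combined list. The proximal Mb of the 4 arms together stood between these, at 26.8 and 27.5 clusters per Mb and a coverage of 8.48% ± 0.070. Chromosome 4 came closest to the rest of the large arms, with 42.9 and 44.4 clusters per Mb and a coverage of 14.0% ± 0.22. In both replicates the order from U through Het, proximal Mb and chromosome 4 to the rest of the large arms was the same, and no neighbours in it came within the spread between replicates. The place of chromosome 4 in that order did not hold among high scores. Its density in the combined list was 57.0 clusters per Mb, against 75.4 on the rest of the large arms, but 38.5 against 37.3 when only clusters above the median score of that list were counted. The file headers also list an unplaced scaffold named Uextra, of 29004656 bp, on which no list had a cluster and which the rule does not take. These densities are per Mb of listed scaffold length. Unread gaps in it, and the share of it on which reads could be placed, are not known, and their part in the low densities was not tested.

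**Figure D1:**
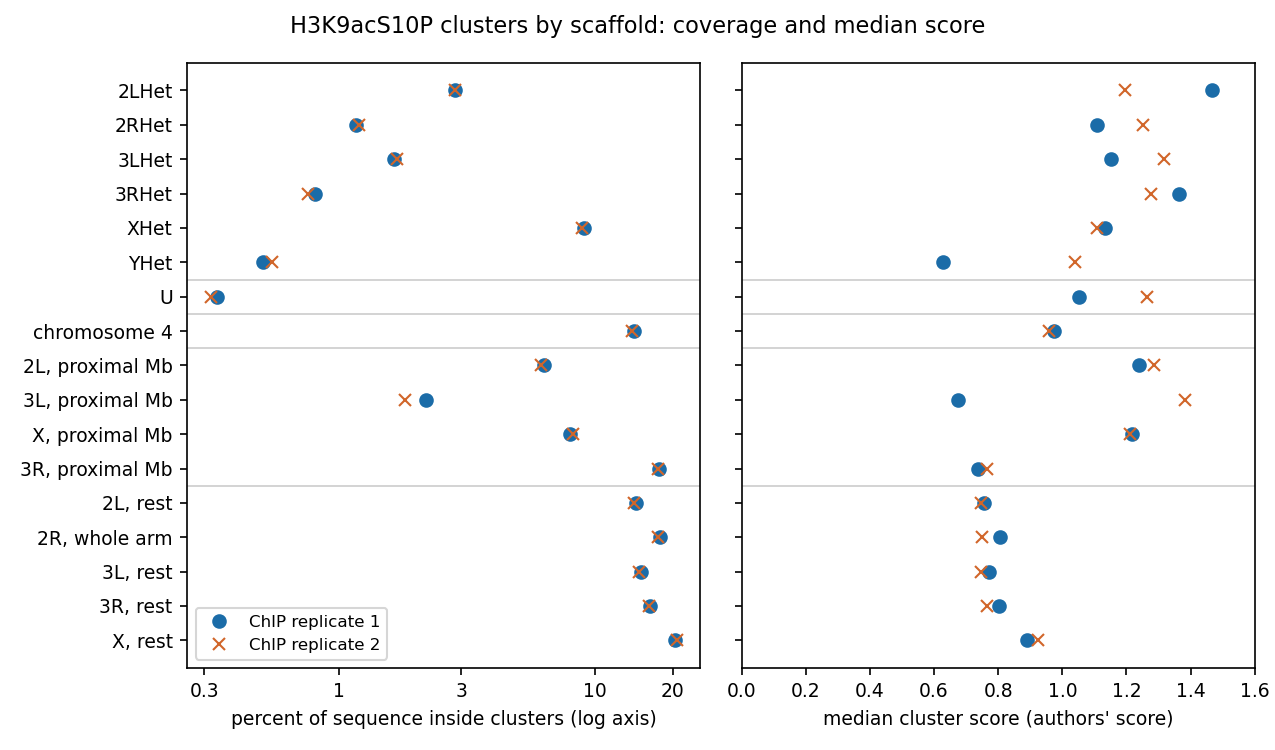
Left, percent of each scaffold or arm segment inside clusters, on a log axis; right, median of the authors' score; circles are ChIP replicate 1 and crosses ChIP replicate 2. U and 5 of the 6 Het scaffolds lie below 3% coverage, while XHet reaches 8.97%, and the median scores of 2LHet, 2RHet, 3LHet, 3RHet, XHet and U lie above 1 in both replicates.

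The score of a cluster is the authors' own value, and no label states its scale, but the values fit a base-2 logarithm. In each list nearly every score equalled a constant plus the base-2 logarithm of a ratio of whole numbers. With a constant of 0.45 for the combined list, 0.37 for replicate 1 and 0.54 for replicate 2, such a ratio with a denominator of at most 3000 was met within a relative tolerance of 1e-09. That held for 8939 of 8976 combined scores, 6364 of 6365 in replicate 1 and 6419 of 6419 in replicate 2, all 301 combined members included. A constant moved by 0.01 left 0.602% of combined scores on such ratios. With the constant found for base 2, reading the scores as natural or base-10 logarithms left 2.07% and 2.65%. No constant was fitted for those bases, so these shares cannot weigh them against base 2. On the base-2 fit, 1 unit of score is a doubling of the underlying ratio. What the whole numbers count is not stated, and a common factor cannot be seen, so they are given below in lowest terms.

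Replicate 1 gave the Het scaffolds a median score of 1.26 and replicate 2 gave 1.27, against 0.81 and 0.79 on the rest of the large arms, differences of 0.44 and 0.48. In the combined list the medians were 1.14 and 0.54, a difference of 0.60. The difference was 0.36 when clusters were compared within groups of like width, and 0.37 when both sides were held to clusters found in both replicates. It did not hold at every width. Among clusters of 1000 to 2000 bp it was 0.11 in the combined list, from 11 Het clusters. In the replicates it was -0.12, from 7 Het clusters, and -0.029, from 5. Of the 51 Het clusters, 27 (52.9%, exact 95% binomial interval 38.5 to 67.1%) scored above the 90th percentile of the combined list, a score of 1.14, where by construction 10.0% of all combined clusters do. Het clusters were wider at the median and yet seldom very wide. Their median widths were 2853 and 2846 bp in the replicates, against 2549 and 2485 bp on the rest of the large arms. Only 4 of 51 combined Het clusters (7.84%) reached 5 kb, against 15.4% of the clusters on the rest of the large arms.

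The 6 Het scaffolds differed from one another. XHet, the shortest at 204112 bp, had 5 clusters in each replicate and a coverage of 8.97% ± 0.14 (SD, n = 2). All 5 of its combined clusters lay within 30.5 kb, from chrXHet:55970 to 86492, and each was found in both replicates. That left 117.6 kb, or 57.6% of the scaffold, empty beyond the last one. 2LHet followed with a coverage of 2.83% ± 0.0012, from 2 clusters in replicate 1 and 4 in replicate 2. 3LHet had 1.67% ± 0.031 and 2RHet 1.18% ± 0.021, with 15 and 13 clusters in each replicate. 3RHet had 0.784% ± 0.038, and 7 of its 8 combined clusters sat in one stretch of 234.8 kb, from chr3RHet:1701930 to 1936736. The first 1701.9 kb of that scaffold, 67.6% of its length, held none.

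YHet, which holds sequence of the Y chromosome, had 1 cluster in each replicate and a coverage of 0.527% ± 0.030 (SD, n = 2). The 2 calls overlapped the same combined cluster, chrYHet:304496-306478, which scored 0.63 and 1.04 in the replicates and 0.71 in the combined list. The combined list added 2 further YHet clusters that were in neither replicate list. All 3 lay in the last part of the scaffold, since the first 304.5 kb (87.7%) held none. No label gives the share of male flies in the collection.

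The named Het clusters fall into 2 kinds. On one side stand clusters with a call in each replicate. Where a replicate had more than 1 call under a combined cluster, the highest score is given. The cluster at chr3LHet:458626-461590 scored 1.84 in replicate 1 and 2.14 in replicate 2, with a combined score of 1.97, rank 9 of all combined clusters. The cluster at chr3LHet:409608-412498 scored 1.73 and 1.80, combined 1.76, and that at chr2RHet:389520-393630 scored 1.71 and 1.83, combined 1.72. The lowest-terms ratio of the first was 1794 to 625. The widest were also of this kind. They were 7603 bp at chrXHet:73900-81502 (combined score 1.35), 6519 bp at chr2LHet:30214-36732 (1.22) and 5363 bp at chr2RHet:196704-202066 (1.14).

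On the other side stand the 2 highest Het scores, which no replicate list contained. The cluster at chr2RHet:1013128-1015122 had the highest score of the whole combined list, 3.91, yet the nearest replicate call lay 7635 bp away in replicate 1 and 7056 bp away in replicate 2. Its lowest-terms ratio was 11 to 1. The cluster at chr3LHet:1882670-1883672, only 1003 bp wide, scored 2.45 at rank 4 with a ratio of 4 to 1. Its nearest calls lay 305502 bp away in replicate 1 and 305563 bp away in replicate 2. An exact tie with it, 2.45 from the same ratio, was held by a 1039-bp cluster on X at chrX:196506-197544, also absent from both replicate lists. What lies behind such small ratios is unknown, since a common factor may have dropped out, so no interval is given for these scores.

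**Figure D2:**
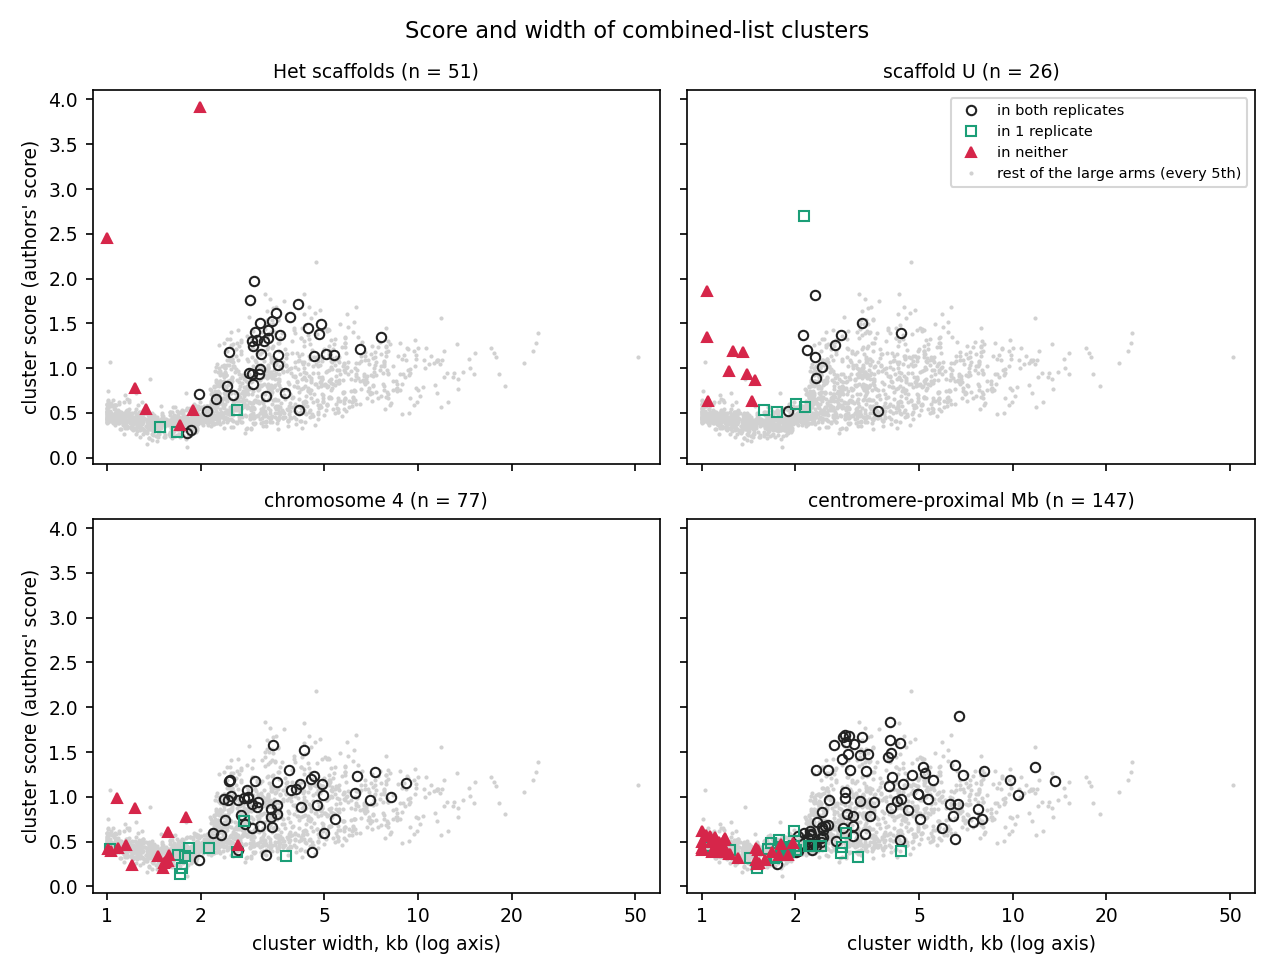
Score of each member cluster of the combined list (authors' score) against its width in kb on a log axis, by compartment, with every 5th cluster of the rest of the large arms in grey. Open circles are found in both replicates, squares in 1 and filled triangles in neither; the triangles of the Het scaffolds and U include narrow clusters scoring up to 3.91, whereas those of chromosome 4 and the proximal Mb stay below 1.

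Clusters on scaffold U showed this split most. Their median scores were 1.05 and 1.26 in replicates 1 and 2, against 0.81 and 0.79 on the rest of the large arms, and their median width of 2171 and 2167 bp was below the 2549 and 2485 bp there. The highest-scoring was the cluster at chrU:7531000-7533130, with 2.70 in the combined list at rank 3 and a ratio of 19 to 4. Replicate 2 called it with 2.25, the highest score of that list, and the nearest call of replicate 1 lay 9548 bp away. The cluster at chrU:3576918-3577956 came next with 1.87 and 8 to 3, in neither replicate list. Clusters with a call in both replicates followed at chrU:6383916-6386220 (1.86 in replicate 1, 1.80 in replicate 2), chrU:8948288-8951572 (1.63 and 1.33) and chrU:3441542-3445906 (1.34 and 1.43). The last of these was the widest on U, at 4365 bp, while the second widest, chrU:6557798-6561484, scored 0.65 and 0.41. A ratio whose lower number was at most 10 in lowest terms belonged to 7 of 26 U clusters (26.9%), 4 of 51 Het clusters (7.84%), 2 of 77 clusters on chromosome 4 (2.60%) and 3 of 147 in the proximal Mb (2.04%), against 1.97% on the rest of the large arms.

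Replicate overlap ordered the compartments differently from density, with clusters of every score counted. In the combined list 42 of 51 Het clusters (82.4%, exact 95% interval 69.1 to 91.6%) overlapped a call in both replicates by at least 1 bp, against 4780 of 8675 (55.1%, 54.0 to 56.2%) on the rest of the large arms. Over the whole combined list the share was 55.4%. Chromosome 4 had 51 of 77 (66.2%, 54.6 to 76.6%), the proximal Mb 87 of 147 (59.2%, 50.8 to 67.2%) and U 12 of 26 (46.2%, 26.6 to 66.6%). The intervals of chromosome 4, the proximal Mb and U overlap one another. They cover counting error over clusters only, and clusters are not independent replicates. Of the 4 intervals, that of Het alone lies wholly above that of the rest of the large arms. This did not hold once clusters not above the median score were left out. Among clusters above the median score the shares were 92.7% on Het (80.1 to 98.5%), 90.4% on chromosome 4 (79.0 to 96.8%) and 92.6% in the proximal Mb (84.6 to 97.2%), against 91.2% (90.4 to 92.1%) on the rest of the large arms. Scaffold U, with 10 of 22 such clusters or 45.5% (24.4 to 67.8%), lay below them.

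**Figure D3:**
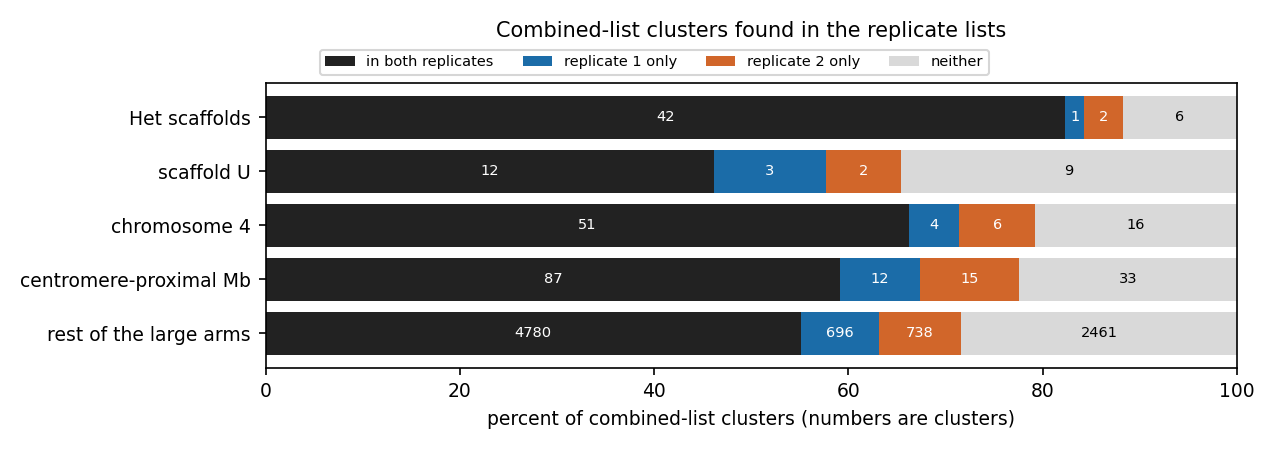
Share of combined-list clusters, in percent, that overlap a call in both replicates, in 1 of them or in neither, for the 4 compartments and, in the lowest bar, the rest of the large arms; numbers in the bars are clusters. With every score counted, the share in both is highest on the Het scaffolds, 82.4%, and lowest on U, 46.2%.

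By base pairs, 85.9% of the Het sequence called in either replicate was called in both, 81.4% on chromosome 4, 76.2% in the proximal Mb and 63.3% on U, against 73.0% on the rest of the large arms. From the replicate lists' own side, 43 of 44 Het clusters in replicate 1 (97.7%) and 43 of 45 in replicate 2 (95.6%) had a partner in the other. Over all clusters of these lists the shares were 86.9% and 86.4%. Scores of clusters paired one to one ranked alike. Spearman's rho was 0.95 over 40 Het pairs, 0.93 over 79 proximal pairs, 0.84 over 49 pairs on chromosome 4 and 0.72 over 12 pairs on U, against 0.84 over 4480 pairs on the rest of the large arms, given as descriptions across clusters of the same 2 samples. The paired starts lay a median of 77 bp apart on Het and 88 bp on chromosome 4, against 127 bp on the rest of the large arms. The score averaged 0.078 higher in replicate 2 over the Het pairs (SD 0.15), with 27 of 40 higher, and 0.026 higher on chromosome 4 (SD 0.14), with 36 of 49 higher. On the rest of the large arms it averaged 0.019 lower in replicate 2 (-0.019, SD 0.17), with 2020 of 4480 higher.

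Few Het calls were found in 1 replicate alone. Over the whole lists 832 of 6365 calls in replicate 1 and 874 of 6419 in replicate 2 had no partner. On the rest of the large arms such calls had median scores of 0.59 and 0.61, against 0.87 and 0.85 with a partner. On Het, replicate 1 had 1 such call, at chr3RHet:1810501-1812317, and its score of 0.73 was above that median. It lay 1004 bp from the nearest call of replicate 2. Replicate 2 had 2, at chr3LHet:1052995-1054467 (0.48) and chr2LHet:20292-21592 (0.44). On U the highest such calls, apart from that at chrU:7531121-7533121 described above, were chrU:9340306-9342363 (0.77) and chrU:5622099-5623542 (0.76) in replicate 1 and chrU:8422893-8424755 (0.79) in replicate 2.

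A combined cluster can appear in neither replicate list. That was so for 6 of 51 Het clusters (11.8%), 16 of 77 on chromosome 4 (20.8%), 33 of 147 in the proximal Mb (22.4%) and 9 of 26 on U (34.6%), against 28.4% on the rest of the large arms and 28.1% of the whole combined list. On the rest of the large arms such clusters were low-scoring, with a median of 0.43. On U their median was 0.97 and on the Het scaffolds 0.66, while chromosome 4 had 0.40 and the proximal Mb 0.41. With a threshold set after seeing the values, 9 clusters of the whole list (0.100%) were in neither replicate and scored 1 or more. Of these, 4 lay on U and 2 on the Het scaffolds, and the other 3 on the rest of the large arms. The 4 on U were 1039 to 1361 bp wide and included chrU:5436692-5437732 (1.34, ratio 13 to 7), chrU:9619662-9620918 (1.19, 5 to 3) and chrU:7459492-7460852 (1.18, 38 to 23). U thus had 4 of its 14 clusters at or above a score of 1 in neither replicate list (28.6%), against 3 of 1369 (0.219%) on the rest of the large arms.

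Chromosome 4 carried clusters along nearly its whole assembled length of 1351857 bp. The 77 combined clusters began at 62538 and ended at 1322334, with 29523 bp left empty beyond the last. Low coordinates are the centromere side of this chromosome. Over its 13 full windows of 100 kb the number of combined clusters ran from 3 to 8 with a median of 5. Mean coverage in the replicates ran from 5.34% to 22.2% with a median of 14.7%, and 10 of 13 windows were above 10%. Richest was the window from 1000001 to 1100000, with 23.0% in replicate 1 and 21.3% in replicate 2, followed by that from 600001 to 700000 with 21.9% and 20.1%. Poorest was the window from 700001 to 800000, with 5.85% and 4.82%. Both replicates thus placed the richest and the poorest full windows alike. The final, shorter window of 51.9 kb had 5.25% and 4.67% in the replicates but 22.3% in the combined list, from 5 clusters of which 3 were in neither replicate list. In the 6 full windows of 200 kb the number of clusters ran from 10 to 11, while mean coverage still ran from 11.5% to 16.0%.

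**Figure D4:**
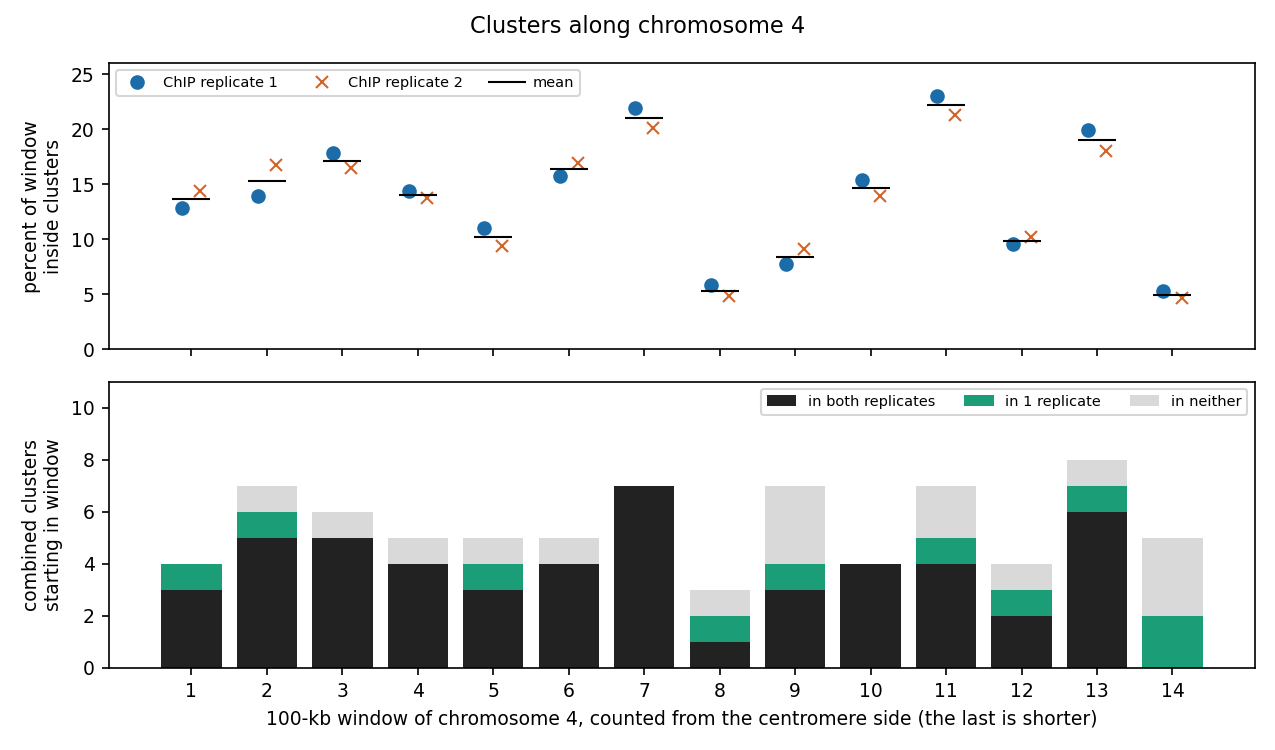
Clusters in 100-kb windows of chromosome 4, numbered from the centromere side; above, percent of each window inside clusters in ChIP replicates 1 and 2 with their mean; below, combined-list clusters starting in each window by whether the replicate lists held them. Coverage is highest in window 11 and lowest among full windows in window 8, and the last window holds no cluster found in both replicates.

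The longest stretches of chromosome 4 without a combined cluster ran 71.8 kb from 734713 to 806523 and 62.5 kb from the first base to 62537. Between neighbouring clusters the median gap was 9.06 kb, against 3.50 kb on the rest of the large arms. At the far end, 9 clusters started in the last 75 kb, and 3 of these were found in both replicates and 4 in neither. In the same end stretch, the call of replicate 2 at chr4:1312471-1314463 was the highest-scoring call on chromosome 4 found in 1 replicate alone, with a score of 1.04, and the nearest call of replicate 1 lay 6183 bp away. The highest of the others scored 0.53 in replicate 2, at chr4:110621-113119, and 0.51 in replicate 1, at chr4:416269-418000.

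The clusters of chromosome 4 scored above the rest of the large arms by a modest amount. Their median was 0.97 in replicate 1 and 0.96 in replicate 2, against 0.81 and 0.79, differences of 0.16 and 0.17. In the combined list the difference was 0.26, and it was 0.16 among clusters found in both replicates and 0.13 within groups of like width. In these groups it was largest among clusters of 2000 to 3000 bp, with medians of 0.92 on chromosome 4 and 0.58 on the rest of the large arms, and below 0 among those of 1000 to 2000 bp, with 0.35 and 0.42. The upper tail was not long. 13 of 77 clusters (16.9%, exact 95% interval 9.31 to 27.1%) were above the 90th percentile, beside 10.0% of all combined clusters, and the highest combined score was 1.57, at chr4:678712-682130. That cluster scored 1.51 in replicate 1 and 1.65 in replicate 2. Those next in rank were chr4:332868-337158 (1.57 and 1.52), chr4:212174-216028 (1.28 and 1.40), chr4:86152-93414 (1.34 and 1.84) and chr4:922680-927298 (1.22 and 1.34). Widest was chr4:1045678-1054826, 9149 bp, which was 1 call in each replicate with scores of 1.14 and 1.20. Next came chr4:572232-580436, 8205 bp, which was broken into 2 calls in each replicate, and then the 7263-bp cluster at 86152 named above.

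The centromere-proximal Mb split by arm. 2L, 3L and X were sparse there and 3R was not. Coverage of the proximal Mb was 6.22% ± 0.098 on 2L, 2.00% ± 0.26 on 3L and 8.05% ± 0.16 on X (SD, n = 2 each). The rest of the same arms had 14.3% ± 0.17 on 2L, 15.0% ± 0.23 on 3L and 20.6% ± 0.25 on X. Proximal minus rest was -8.13 and -8.03 percentage points on 2L in replicates 1 and 2, -12.9 and -13.0 on 3L and -12.5 and -12.7 on X. On 3R the proximal Mb had 17.6% ± 0.080 and the rest of the arm 16.2% ± 0.027, a difference of 1.45 and 1.37 points. 3R alone supplied 83 of the 147 combined clusters in this compartment. With 3R left out, the density of combined clusters was 21.3 per Mb, against 36.8 with it, and mean coverage 5.42%, against 8.48%. Clusters above the median score had a proximal density of 20.3 per Mb, against 37.3 on the rest of the large arms.

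Where proximal sequence was sparse on 2L and X, its clusters again scored high in the replicate lists, on X in these alone. Proximal 2L had medians of 1.24 and 1.29 in replicates 1 and 2, against 0.76 and 0.75 on the rest of 2L. On proximal X they were 1.22 and 1.21, against 0.89 and 0.92 on the rest of X. In the combined list the median was 1.06 on proximal 2L, against 0.49 on the rest of 2L. There proximal X had 0.61, against 0.62 on the rest of X. Proximal 3L, with 9 clusters in replicate 1 and 6 in replicate 2, had medians of 0.68 and 1.38, far apart between the replicates, against 0.77 and 0.75 on the rest of 3L. On proximal 3R they were 0.74 and 0.76, against 0.80 and 0.76 on the rest of 3R. For the 4 arms together the proximal medians were 0.81 in replicate 1 and 0.88 in replicate 2, against 0.81 and 0.79 on the rest of the large arms, and the differences of -0.0041 and 0.092 had opposite signs. In the combined list the difference was 0.038 for all 4 arms, 0.25 without 3R and 0.15 when both sides were held to clusters found in both replicates. The 5 highest-scoring proximal clusters were all on 2L or X and all found in both replicates. First was a cluster of 6701 bp at chr2L:22426594-22433294, with 1.96 in replicate 1 and 1.90 in replicate 2. The others were chrX:22413362-22417402 (1.82 and 2.03), chrX:21493224-21496110 (1.83 and 1.73), chrX:22404398-22407382 (1.55 and 1.87) and chrX:21480940-21484218 (1.84 and 1.61). For the 4 arms together 33 of 147 clusters (22.4%, exact 95% interval 16.0 to 30.1%) were above the 90th percentile of score. By construction 10.0% of all combined clusters were, and 9.37% on the rest of the large arms.

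Within the proximal Mb of 2L, 3L and X, though not of 3R, the clusters stood in clumps between long empty stretches. Of 10 windows of 100 kb each, 5 on 3L, 4 on X, 3 on 2L and 0 on 3R had no call in either replicate. No such count is given here for the rest of the large arms. On X the window 500 to 600 kb from the end had coverages of 31.0% and 31.9% in replicates 1 and 2, above the 20.5% and 20.8% of the rest of that arm. The 3 windows beyond it, 600 to 900 kb from the end, held no cluster in any list. They lie in a stretch of 342.5 kb without a combined cluster, from chrX:21502439 to 21844917. The second-widest proximal cluster, chrX:21865938-21877706 of 11769 bp, lay in the rich window, and the widest, chrX:21930244-21943884 of 13641 bp, in the next one toward the end. The next in width was on 3R, 10431 bp at chr3R:903834-914264. The highest-scoring calls found in 1 replicate alone were all on X, at chrX:21893370-21894896 (0.72) and chrX:22233797-22235484 (0.72) in replicate 1 and at chrX:22061853-22063844 (0.83) and chrX:22079548-22080908 (0.76) in replicate 2. On 3L the longest empty stretches were 303.5 kb and 287.7 kb, and on 2L 214.0 kb. On 3R the richest windows lay close to the end of the arm. The window 200 to 300 kb from it reached 41.2% and 37.5%, and the window 100 to 200 kb from it 33.1% and 30.3%. The longest empty stretch on proximal 3R was 83.7 kb. On the rest of the large arms, with 115 Mb against 4 Mb here, the longest was 404.4 kb. Long empty stretches are thus not particular to the proximal Mb.

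**Figure D5:**
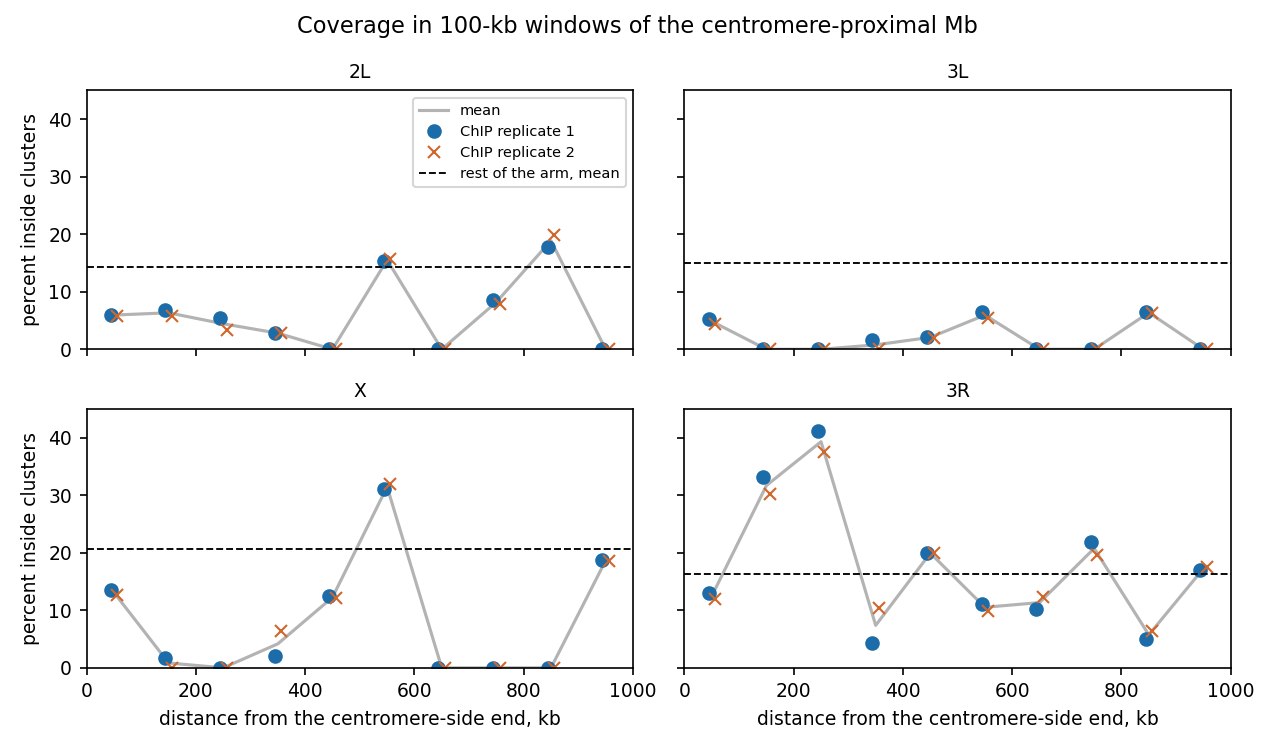
Percent of each 100-kb window inside clusters against its distance in kb from the centromere-side end of the arm, for ChIP replicates 1 and 2 with their mean; the dashed line is the mean of the rest of the same arm. On 2L, 3L and X most windows lie below that line, whereas on 3R 5 of 10 lie above it.

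Genes under these clusters are not named and no sequence is shown, because neither annotation nor sequence of release r5 was used here.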

How the data were processed

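ChIP-seq of H3K9acS10P was done on 2 ChIP samples with 1 input each. The submitters' processing notes name Bowtie 0.12.7, and coordinates are on FlyBase r5, per the file headers. The authors deposited a list of enriched clusters for each ChIP sample and a combined list, with 1 score per cluster. For the cluster caller, its threshold and the way of combining replicates nothing is given in the sources used here, and depth is unknown.

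Compartments, chosen by position with arm lengths from the file headers, were compared by clusters per Mb, percent covered, median width, median score and overlap of at least 1 bp. A cluster belongs to the compartment in which it starts, and coverage was counted within the compartment's limits. Shares have exact (Clopper-Pearson) 95% intervals. Named regions are the 5 highest-scoring and 3 widest combined clusters of each compartment, the 2 highest-scoring calls of each replicate without a partner and the 2 longest stretches of chromosome 4 without a cluster. Other stretches, windows and the U clusters in neither list were named after their values were seen. The compartments and rules were chosen with earlier results of these data known. The functions were tested on simulated lists. Work was done in Python 3.11.15 with pandas 2.3.3 and SciPy 1.17.1. The gene table at hand is of release 6, so its coordinates were not used.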

Additional observations from a re-analysis of the deposited data

How the results depend on the processing

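No paired analysis was possible because ChIP was not compared with input: only the ChIP samples have cluster lists here. The score difference of the proximal Mb from the rest of the large arms, 0.038, changed sign in the list of replicate 1 alone, to -0.0041, and was 0.092 in that of replicate 2. It was the 1 sign change among 73 values, of which 41 moved by less than the spread between replicates or stayed within the binomial interval. The cause of the other shifts was not tested beyond what each setting does by construction. The combined list in place of the replicate lists gave coverages of 1.74% on Het, 17.8% on chromosome 4, 11.4% in the proximal Mb and 0.531% on U. With only clusters above the median score, density was 38.5 per Mb on chromosome 4 and 20.3 in the proximal Mb, against 37.3 on the rest of the large arms, so chromosome 4 no longer lay below it. The shares found in both replicates were 92.7% on Het, 90.4% on chromosome 4 and 92.6% in the proximal Mb, against 91.2% on the rest of the large arms, so Het no longer stood above it. With 1 replicate left out, the proximal share that overlapped the other replicate was 67.3 to 69.4%, against 59.2% in both. By construction it cannot be lower than the share in both, so this shift says nothing about the compartment. Merging clusters within 1000 bp gave 28.8 proximal clusters per Mb, against 57.4 on the rest of the large arms. A proximal window of 2 Mb gave 46.5 clusters per Mb and a coverage of 10.9%, and leaving out 3R gave 21.3 per Mb, 5.42% and a score difference of 0.25. Score differences averaged over the replicate lists were 0.46 on Het, 0.16 on chromosome 4 and 0.36 on U. In replicates 1 and 2 alone, chosen after seeing the data, they were 0.44 and 0.48 on Het, 0.16 and 0.17 on chromosome 4 and 0.24 and 0.47 on U. Averaged over width groups of the combined list they were 0.36 on Het and 0.13 on chromosome 4. Differences within single width groups are not among the 73 values, and some were below 0. At 1000 to 2000 bp Het had 0.11 in the combined list but -0.12 and -0.029 in replicates 1 and 2. Chromosome 4 had -0.068, -0.11 and -0.13 there. Among clusters found in both replicates, a setting chosen after seeing the data, the score differences were 0.37 on Het, 0.16 on chromosome 4 and 0.15 in the proximal Mb. On chromosome 4, the ratio of most to fewest clusters per full window was 2.67 at 100 kb and 1.10 at 200 kb. The unknown depth and the unknown share of these scaffolds on which reads can be placed limit every density given here.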
